A study of Homo sapiens with 6 samples.

Results

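This set of 10 genes of the interleukin 1 (IL1) and interleukin 6 (IL6) systems was followed after knockdown of NRDE2 in MDA-MB-231, a long-used triple-negative breast cancer cell line. They are the IL1 ligand genes IL1A and IL1B, the IL1 antagonist gene IL1RN, the IL1 receptor genes IL1R1 and IL1RAP, the IL6 family ligand genes IL6, IL11 and LIF, and the receptor genes IL6ST and OSMR. They were taken by symbol from the 25365 rows of the deposited table, and all 10 were present. The set was chosen from results of this same comparison, because IL1B was much higher with the knockdown while IL6 was not, so the differences of the 10 genes between the groups are given as a description with no p-value. Each of 3 si-NRDE2-2 libraries came from cells given 20 nM of 1 siRNA against NRDE2 (Ambion s30064), and each of 3 si-Control libraries from cells given 20 nM of a control siRNA (Ambion AM4611). RNA was taken 48 h after transfection in both groups. NRDE2 acts in the nucleus as a partner of MTREX, an RNA helicase. The labels do not say that replicates were grown apart, so each p-value reflects spread among these libraries alone, and that spread may be technical. Levels are FPKM, fragments scaled by transcript length and by library size, as the authors deposited them.

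IL1A and IL1B are secreted or released agonists that bind IL1R1, which then recruits the co-receptor IL1RAP. The pair signals through MYD88 and IRAK kinases to NF-kB, and IL1RN occupies IL1R1 without starting the signal. IL1B, CXCL8, ICAM1 and IL6 are all textbook targets of this pathway. Ligands of the IL6 family share the signalling receptor gp130, encoded by IL6ST, paired with a ligand-specific receptor such as OSMR for oncostatin M, and activate JAK kinases and STAT3. Both families are made by basal-like breast cancer cells, and many of their mRNAs carry AU-rich elements in the 3′ UTR that bind decay factors.

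NRDE2 mRNA was 0.230, 0.234 and 0.229 FPKM in si-NRDE2-2 replicates 1, 2 and 3, against 4.39, 4.45 and 3.80 FPKM in si-Control replicates 1, 2 and 3. Every library matched its label. The depth estimated from the steps between low values ran from 41900000 to 53300000 fragments with si-NRDE2-2 and from 50600000 to 57700000 with si-Control. The line markers VIM, CD44, EGFR, CAV1 and AXL summed to between 1718 and 1761 FPKM in si-NRDE2-2 libraries. In si-Control libraries the sum was between 1726 and 1861 FPKM. By limma CD44 was higher with si-NRDE2-2 (log2 difference 0.26, adjusted p = 7.9e-04). AXL was lower (log2 difference -0.33, adjusted p = 1.2e-04 by limma), and VIM, EGFR and CAV1 were not called. The hormone receptor genes ESR1 and PGR were at or near 0. Since IL1B is best known from myeloid cells, 8 leukocyte markers were also read. PTPRC, ITGAM and CD3E stayed at or near 0 and MS4A1 was listed at 0. The 8 markers summed to 77.0 to 81.0 FPKM with si-NRDE2-2 and to 64.8 to 70.5 FPKM with si-Control. Nearly all of it was CD68, which encodes a lysosomal protein. CD68 was higher with si-NRDE2-2 (log2 difference 0.22, adjusted p = 0.00272 by limma). LYZ, below the floor for testing, averaged 0.818 FPKM with si-NRDE2-2 and 0.525 FPKM with si-Control. CSF1R averaged 1.12 and 0.993 FPKM in that order and was not called. CD14, a co-receptor for bacterial lipopolysaccharide, averaged 2.32 ± 0.0716 FPKM with si-NRDE2-2 and 1.44 ± 0.233 FPKM with si-Control (SD, n = 3 each, adjusted p = 5.0e-04 by limma). The luminal markers summed to between 616 and 639 FPKM with si-NRDE2-2 and to between 559 and 610.5 FPKM with si-Control. Nearly all of that was the keratin genes KRT8 and KRT18. KRT8 averaged 314 FPKM in both groups. KRT18 averaged 314 FPKM with si-NRDE2-2 and 273 FPKM with si-Control (adjusted p = 0.00878 by limma). GATA3 averaged 2.19 and 2.09 FPKM in the same order, and FOXA1 was near 0. In bulk RNA a lower level in every cell and fewer cells with the transcript cannot be told apart.

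The promoters of IL1B and IL6 are shown because these are the pair of NF-kB target genes whose levels part. RefSeq's table of promoters (GRCh38.p14, 250 bases before to 50 after the start) had entries for 9 of the 10 genes; LIF was the other. Each promoter was searched on both strands for NF-kB (GGGA and TCC with any 3 bases between them), AP-1 (TGANTCA), C/EBP (TTGNNNAA), STAT (TTCNNNGAA), a TATA box (TATAAA) and the core of the cAMP response element (TGACG). Capitals mark the matches, and overlapping matches run together. The IL1B window lies at chr2:112836730-112837029 on the minus strand and that of IL6 at chr7:22726950-22727249 on the plus strand.
IL1B promoter: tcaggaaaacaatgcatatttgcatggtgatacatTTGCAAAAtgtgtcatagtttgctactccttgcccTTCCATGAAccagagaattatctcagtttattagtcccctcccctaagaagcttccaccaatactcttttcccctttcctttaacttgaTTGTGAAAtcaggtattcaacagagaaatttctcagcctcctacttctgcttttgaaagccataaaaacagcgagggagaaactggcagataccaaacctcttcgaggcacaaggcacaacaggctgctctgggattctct
IL6 promoter: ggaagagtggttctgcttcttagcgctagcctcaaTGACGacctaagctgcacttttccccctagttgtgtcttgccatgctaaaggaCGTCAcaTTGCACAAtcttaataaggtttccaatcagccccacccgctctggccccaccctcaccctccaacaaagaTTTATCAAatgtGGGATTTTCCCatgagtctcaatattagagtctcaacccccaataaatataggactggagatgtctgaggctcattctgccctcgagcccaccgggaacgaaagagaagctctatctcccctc

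IL6 held the NF-kB motif in 2 overlapping matches, 1 on each strand, at positions -73 and -72 from the start, with 2 C/EBP and 2 TGACG matches. IL1B held 2 C/EBP matches and 1 STAT match at -180 and no match to the NF-kB, AP-1, TATA or TGACG letters in this window. The NF-kB letters were in 5.07% of 35116 promoters and in those of IL6 and IL1RAP among the 10 genes. Percentages count promoters, while a gene was counted if any of its promoters matched, and IL1R1, IL1A and IL1RN had several. AP-1 letters were in 7.71% of all promoters. Among the 10 genes they were found for IL1A, IL1RN, IL11 and OSMR, though not in every promoter of IL1RN. C/EBP letters were in 33.4% and STAT letters in 7.66% of all promoters. TATAAA was found in 11.5% of promoters and TGACG in 24.6%.

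Stretches of 30 bases from the 3′ UTRs are shown because AU-rich elements are the best known decay signals of cytokine mRNAs. The 3′ UTRs are those of the GENCODE 29 transcript with the longest coding sequence. ATTTA occurred in 9 of the 10 genes, all but IL1RN, with 6 copies in IL1B, 6 in IL6, 5 in IL1A, 9 in IL11 and 7 in LIF. It was in 68.3% of 10578 tested genes with a 3′ UTR. The longer TTATTTATT was in 8.30% of those genes and in 4 of the 10, with 2 copies in IL1B, 6 in IL11, 2 in LIF and 2 in OSMR. IL6 and IL1A had none. The first copy in each is in capitals.
IL1B: gcttccctatTTATTTATTtatttgtttgt
IL11: aagccagatcTTATTTATTtatttatttca
LIF: ctccgggcccTTATTTATTatttaaacatt
OSMR: tattttacttTTATTTATTttttgagatga

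The 4 genes with this element did not share a difference between the groups. IL1B was well above si-Control with si-NRDE2-2, and the other 3 were within 0.10 of it on the log2 scale. Across all tested genes with a 3′ UTR, 21.6% of those with TTATTTATT were higher and 19.9% lower with si-NRDE2-2 (adjusted p under 0.05), against 21.3% and 23.4% of those without.

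IL1B had the largest difference of the 10 genes. Its level was 8.66, 7.42 and 8.94 FPKM in si-NRDE2-2 replicates 1, 2 and 3, against 2.92, 2.19 and 3.77 FPKM in si-Control replicates 1, 2 and 3. The lowest si-NRDE2-2 library stood well above the highest si-Control library. The means were 8.34 ± 0.812 FPKM with si-NRDE2-2 and 2.96 ± 0.791 FPKM with si-Control (SD, n = 3 each), a ratio of 2.82 and a log2 difference of 1.49 ± 0.17 (SE), on the log2(FPKM + 0.1) scale that all log2 differences here use. Of 11791 tested rows, 14, IL1B included, had a log2 difference as high (0.119%). IL1B was chosen for this rise, so its rank is a description alone. These levels corresponded to about 612 to 737 fragments per si-NRDE2-2 library and 206 to 311 per si-Control library.

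IL1A, the other agonist, lies beside IL1B in the IL1 cluster on chromosome 2. It was at 18.3, 15.7 and 17.9 FPKM in si-NRDE2-2 replicates 1 to 3 and at 10.6, 8.70 and 12.8 FPKM in si-Control replicates 1 to 3. The groups did not overlap, and the ratio of means was 1.62 (log2 difference 0.70 ± 0.12). The excess of IL1A over IL1B therefore narrowed: IL1A was 2.12, 2.12 and 2.00 times IL1B in si-NRDE2-2 replicates 1 to 3 and 3.64, 3.97 and 3.39 times IL1B in si-Control replicates 1 to 3.

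IL1RN, the antagonist, was close to absent. It was listed at 0.0453, 0.0222 and 0.0283 FPKM in the si-NRDE2-2 libraries and at 0.0964, 0.0617 and 0.0469 FPKM in the si-Control libraries. These values stood for about 2.1 to 4.3 fragments per si-NRDE2-2 library and 4.3 to 9.6 per si-Control library. The lower end of si-Control was barely above the upper end of si-NRDE2-2, and with so few fragments no ratio is given. IL1RN was the one gene of the 10 that did not reach 1 FPKM in at least 3 libraries and was not fitted. The other 9 were above 1 FPKM in all 6 libraries.

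**Figure D1:**
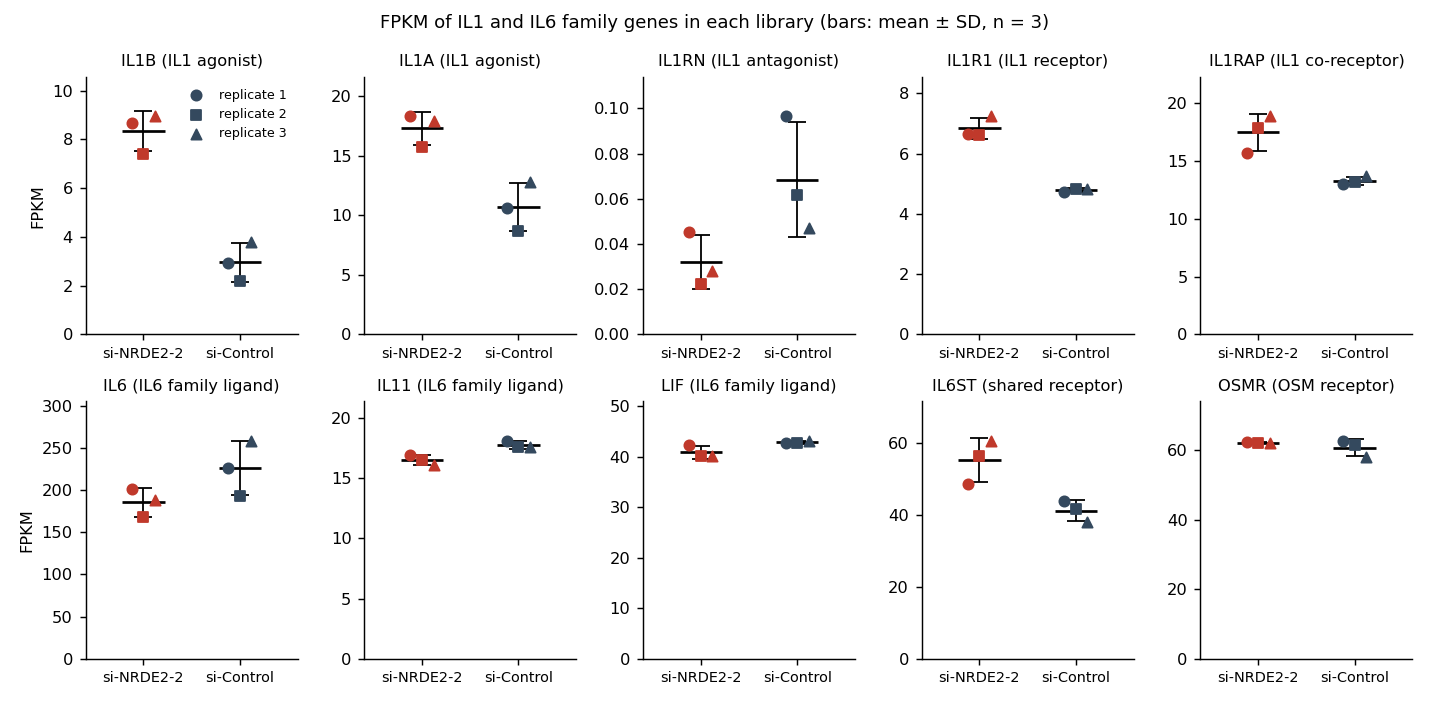
FPKM (vertical axes from 0, one scale per gene) of the 10 genes in the si-NRDE2-2 (red) and si-Control (dark blue) libraries; symbols mark replicates 1 to 3, horizontal bars the mean and whiskers the SD. IL1B runs from 7.42 to 8.94 FPKM with si-NRDE2-2 and from 2.19 to 3.77 FPKM with si-Control, while IL6 and OSMR overlap between the groups.

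Both chains of the IL1 receptor were higher with si-NRDE2-2. IL1R1, the ligand-binding chain, was at 6.65, 6.63 and 7.24 FPKM in si-NRDE2-2 libraries and at 4.73, 4.82 and 4.83 FPKM in si-Control libraries. Its groups were far apart relative to their spread, with a ratio of 1.43 (log2 difference 0.50 ± 0.06). IL1RAP, the co-receptor that also serves the IL33 and IL36 receptors, was at 15.6, 17.8 and 18.8 FPKM in si-NRDE2-2 libraries against 13.0, 13.2 and 13.6 FPKM in si-Control libraries. Its ratio was 1.31 (log2 difference 0.39 ± 0.06), again with no overlap.

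The IL6 family ligands did not share this direction. IL6, the most abundant of the 10 transcripts, was at 201, 168 and 188 FPKM in si-NRDE2-2 replicates 1 to 3 and at 227, 194 and 259 FPKM in si-Control replicates 1 to 3. The groups overlapped, since si-NRDE2-2 replicate 1 was above si-Control replicate 2. The means were 186 ± 16.8 FPKM with si-NRDE2-2 and 226 ± 32.5 FPKM with si-Control (SD, n = 3 each), a ratio of 0.820 and a log2 difference of -0.28 ± 0.10. Without si-Control replicate 3 the log2 difference was -0.18, and without si-Control replicate 2 it was -0.39.

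IL11, which acts on stromal cells and on bone and is linked to breast cancer metastasis there, was at 16.9, 16.5 and 16.1 FPKM in si-NRDE2-2 libraries and at 18.1, 17.6 and 17.6 FPKM in si-Control libraries. LIF, a ligand of LIFR and gp130 named for its effect on leukaemia cells, was at 42.3, 40.1 and 40.2 FPKM in si-NRDE2-2 libraries against 42.7, 42.7 and 43.1 FPKM in si-Control libraries. Both pairs of groups were separate but close, with ratios of 0.930 for IL11 (log2 difference -0.10 ± 0.04) and 0.953 for LIF (-0.07 ± 0.04). The median absolute log2 difference over all tested rows was 0.14.

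The receptor genes of the IL6 family differed from each other. IL6ST was at 48.6, 56.5 and 60.7 FPKM in si-NRDE2-2 libraries and at 44.0, 41.7 and 38.1 FPKM in si-Control libraries, with no overlap and a ratio of 1.34 (log2 difference 0.42 ± 0.08). OSMR was at 62.4, 62.2 and 62.1 FPKM in si-NRDE2-2 libraries and at 62.7, 61.4 and 58.1 FPKM in si-Control libraries. Its groups overlapped (ratio 1.02, log2 difference 0.03 ± 0.04). IL6ST was 0.778, 0.909 and 0.978 times OSMR in si-NRDE2-2 replicates 1 to 3, against 0.701, 0.679 and 0.656 times in si-Control replicates 1 to 3.

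**Figure D2:**
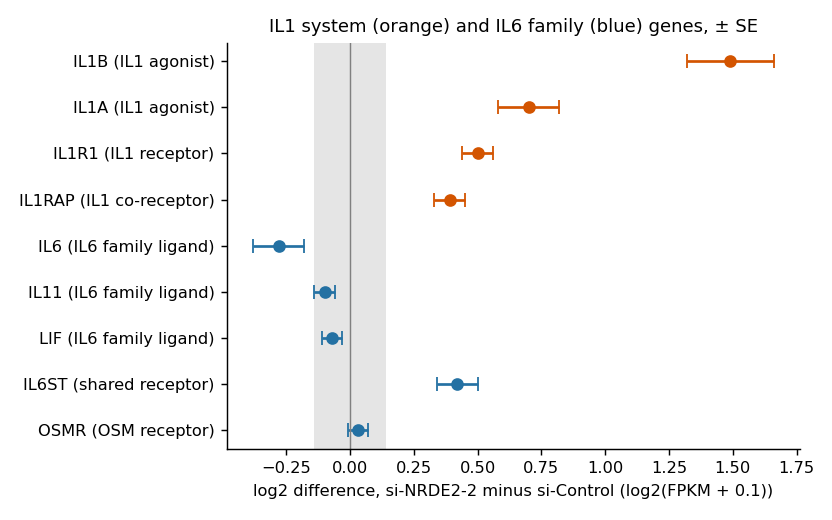
Log2 difference (horizontal axis, si-NRDE2-2 minus si-Control, log2(FPKM + 0.1)) of the 9 fitted genes with its SE, IL1 system in orange and IL6 family in blue; the grey band spans the median absolute difference of all tested rows (0.14). The 4 IL1 genes lie between 0.39 and 1.49, and of the IL6 family only IL6ST, at 0.42, lies above the band.

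No calls are given for the 9 fitted genes. Over all 11791 tested rows, 20.9% were called higher and 23.0% lower with si-NRDE2-2 by limma at an adjusted p under 0.05. The groups did not overlap for 5 genes that were higher and 2 that were lower (IL11 and LIF), beside 25.2% and 28.3% of all tested rows (53.5% in either direction). Calls in either direction made up 44.0% of all tested rows. The genes were chosen from this comparison, so nothing is read from these counts.

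Because FPKM is scaled by length, the levels can be ordered across genes. With si-NRDE2-2 the order of means was IL6, OSMR, IL6ST, LIF, IL1RAP, IL1A, IL11, IL1B, IL1R1 and IL1RN. IL1RAP, IL1A and IL11 overlapped with their neighbours there, at 17.4, 17.3 and 16.5 FPKM. With si-Control the order was IL6, OSMR, LIF, IL6ST, IL11, IL1RAP, IL1A, IL1R1, IL1B and IL1RN, and LIF and IL6ST overlapped. IL1B thus stood above IL1R1 with si-NRDE2-2 and below it with si-Control. IL6 exceeded IL1B 23.2-, 22.6- and 21.0-fold in si-NRDE2-2 replicates 1 to 3 and 77.5-, 88.3- and 68.6-fold in si-Control replicates 1 to 3.

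The replicates of each group also differed among themselves, a measure that had no part in the choice of the genes. In both groups replicate 2 had the lowest level of IL1A, IL1B and IL6. This held for 3 of the 9 fitted genes and for 7.42% of all tested rows. Among the other IL1 and NF-kB target genes it held for 17 of 21, and among STAT3 and acute-phase target genes for 7 of 18. The chemokine gene CXCL8, for example, was at 349.6, 313 and 369.6 FPKM in si-NRDE2-2 replicates 1 to 3 and at 204, 164 and 223 FPKM in si-Control replicates 1 to 3. IL6 was thus lowest in the same replicate as most of these targets. The log2 difference of IL6 between the groups was -0.28, and those of the 21 targets ran from -0.14 to 1.49. Unlike the order of replicates, that difference was part of why IL6 was chosen, so its place below the targets is a description alone. NFKB2 (-0.14), CXCL3 (-0.10) and NFKBIZ (-0.07) were also below 0. The SD of log2 values within groups was 0.29 for IL1B, 0.21 for IL1A and 0.17 for IL6, against a median of 0.07 over all tested rows. IL11, LIF and OSMR, at 0.03, 0.03 and 0.04, varied less than that median. The pattern was noticed in these values and not tested, and over all tested rows the replicate numbers were not taken to pair the libraries.

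The other IL1 and NF-kB target genes were mostly higher with si-NRDE2-2. Of 21 tested, 13 rose and 0 fell by limma at an adjusted p under 0.05 (13 and 1 at an unadjusted p under 0.05). Their median log2 difference was 0.38, where 20.9% of all rows rose, 23.0% fell and the median was -0.02. The list was chosen with earlier results of these data known. As 17 of the 21 shared the replicate 2 pattern, the calls are not separate observations. NFKBIA was called although its groups overlapped. VCAM1, an adhesion receptor for leukocytes, averaged 6.54 ± 0.185 FPKM with si-NRDE2-2 and 2.27 ± 0.243 FPKM with si-Control (SD, n = 3 each; log2 difference 1.49 ± 0.08, adjusted p = 2.0e-07). The adhesion receptor gene ICAM1 was at 156, 135 and 147 FPKM with si-NRDE2-2, against 83.8, 76.9 and 95.4 FPKM with si-Control. CXCL8 and the monocyte chemokine gene CCL2 rose by 0.81 ± 0.10 and 0.77 ± 0.09.

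The 8 target genes that did not pass, named after their values were seen, were CXCL1, CXCL2, CXCL3, TNFAIP2, NFKBIZ, CSF2, LCN2 and NFKB2, with log2 differences from -0.14 to 0.38. CSF2, the gene of the growth factor GM-CSF, was at 215, 178 and 200.9 FPKM with si-NRDE2-2 and at 185, 150.5 and 204 FPKM with si-Control, so its groups overlapped as those of IL6 did. CXCL2, a neutrophil chemokine gene, was at 59.5, 51.6 and 55.7 FPKM with si-NRDE2-2 and at 58.4, 47.8 and 61.2 FPKM with si-Control. Like IL6, CXCL2 was not called higher. TNF and IER3 were listed at 0 in all 6 libraries, which in this kind of table can be a failed estimate.

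**Figure D3:**
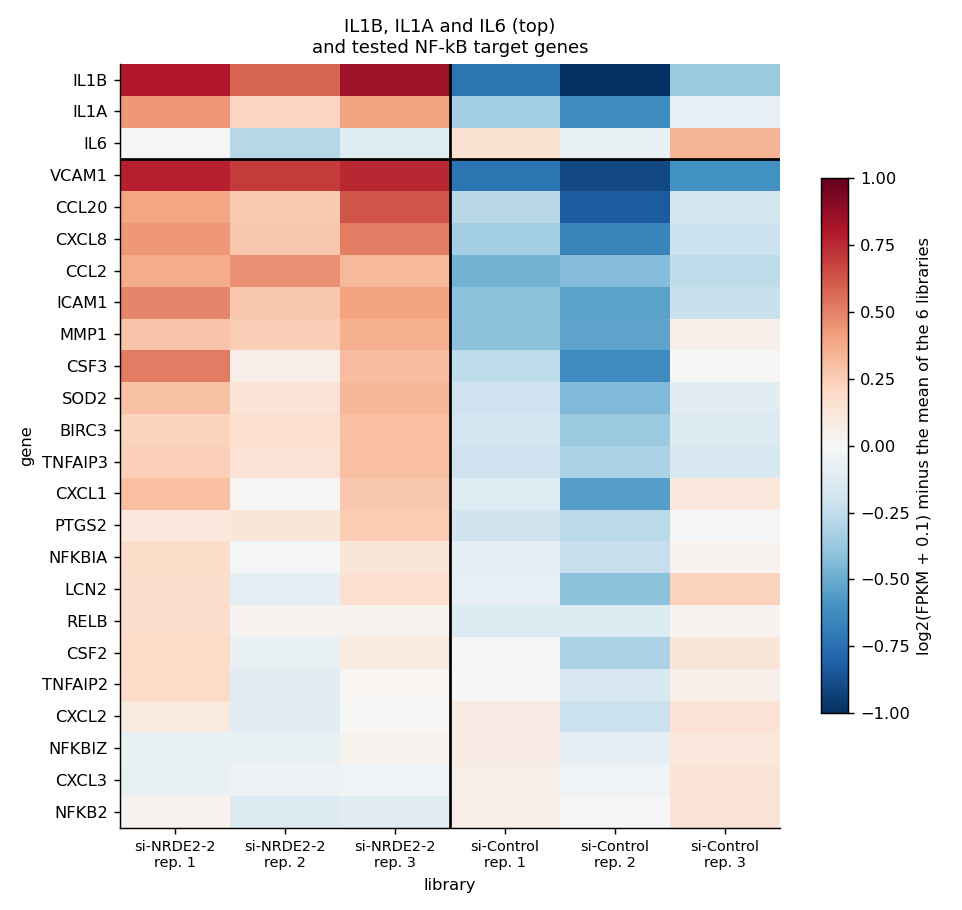
Log2(FPKM + 0.1) minus the mean of the 6 libraries (colour) for IL1B, IL1A and IL6 above the line and the 21 tested NF-kB target genes below it (rows), in si-NRDE2-2 libraries left of the line and si-Control libraries right of it (columns); values past 1 in either direction take the end colour. Replicate 2 is the lowest library of both groups for 17 of the 21 targets, and the rows from VCAM1 (1.49) to NFKB2 (-0.14) are ordered by their difference between groups.

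Upstream of NF-kB, the IL1 receptor signalling genes moved in both directions. Of 20 tested, 9 rose and 3 fell, beside 20.9% and 23.0% of all tested rows, with a median log2 difference of 0.04. PELI1, a ubiquitin ligase that acts on IRAK proteins, averaged 4.97 ± 0.401 FPKM with si-NRDE2-2 and 3.0 ± 0.0234 FPKM with si-Control (SD, n = 3 each; log2 difference 0.71 ± 0.07, adjusted p = 1.8e-05). UBE2V1, a partner in building lysine-63 ubiquitin chains, rose by 0.29 ± 0.04, TAB3 by 0.39 ± 0.07 and the kinase gene MAP3K7, also called TAK1, by 0.34 ± 0.06. The kinase genes IRAK1 and IKBKB fell by 0.22 ± 0.04 and 0.23 ± 0.05 on the log2 scale.

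IL1B protein must be cut before it is released, and the genes of that step differed little. Of 13 tested inflammasome and processing genes, 3 rose and 1 fell, beside 20.9% and 23.0% of all tested rows. Their median log2 difference was -0.07. CASP4, the receptor for intracellular lipopolysaccharide, averaged 40.6 ± 0.903 FPKM with si-NRDE2-2 and 32.8 ± 3.08 FPKM with si-Control (SD, n = 3 each; log2 difference 0.31 ± 0.06, adjusted p = 0.00186). NLRP3 rose by 0.31 ± 0.09 and AIM2 by 0.16 ± 0.05, both sensors that assemble inflammasomes, while the calpain gene CAPN1 fell by 0.11 ± 0.04. CASP1, the protease that cleaves IL1B, was at 2.12, 1.94 and 2.94 FPKM with si-NRDE2-2 and at 2.08, 2.32 and 2.07 FPKM with si-Control, with overlap. The count of 4 called genes went to 2 without si-NRDE2-2 replicate 2 and to 1 without si-Control replicate 1 or 2.

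Of 16 other IL1 family ligands and receptors, 4 were tested, of which 2 rose and 1 fell, beside 20.9% and 23.0% of all tested rows. IL18, an IL1 family cytokine that is cut by the same caspase, averaged 18.1 ± 0.579 FPKM with si-NRDE2-2 and 27.2 ± 1.38 FPKM with si-Control (SD, n = 3 each; log2 difference -0.59 ± 0.05, adjusted p = 5.3e-06). Its direction was opposite to that of IL1A and IL1B. IL1RAPL1 (0.35 ± 0.09) and the inhibitory receptor gene SIGIRR (0.19 ± 0.07) rose. The decoy receptor gene IL1R2 was under 0.1 FPKM in every library.

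The remaining IL6 family ligands and receptors gave 0 genes higher and 0 lower by limma at an adjusted p under 0.05 among 7 tested of 14; at an unadjusted p under 0.05 the counts were 1 and 0. Over all tested rows 20.9% were called higher and 23.0% lower. The log2 differences of the 7 ran from -0.13 (CTF1) to 0.22 (EBI3). IL6R, the receptor chain that binds IL6, was below the filter, at 0.630, 0.518 and 0.616 FPKM with si-NRDE2-2 and 0.554, 0.582 and 0.566 FPKM with si-Control. LIFR, the receptor chain for LIF, was at 8.17, 9.37 and 10.2 FPKM with si-NRDE2-2 and at 9.19, 8.53 and 7.64 FPKM with si-Control. OSM, the ligand of OSMR, was at or near 0 in all libraries.

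Genes of gp130, JAK and STAT signalling divided, with 7 that rose and 6 that fell of 21 tested (median 0.02). Over all tested rows 20.9% rose and 23.0% fell. The feedback inhibitor genes SOCS1 and SOCS5 rose by 0.62 ± 0.06 and 0.65 ± 0.07, and ADAM10, a protease that can shed receptor ectodomains, rose by 0.40 ± 0.05. SOCS2 fell by 0.43 ± 0.06 and the kinase gene TYK2 fell by 0.27 ± 0.04. SOCS1 averaged 7.70 ± 0.348 FPKM with si-NRDE2-2 and 4.96 ± 0.208 FPKM with si-Control (SD, n = 3 each; adjusted p = 1.3e-05).

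Of 18 tested STAT3 and acute-phase target genes, 9 rose and 3 fell, beside 20.9% and 23.0% of all tested rows. Their median log2 difference was 0.10. SERPINA3, an acute-phase protease inhibitor, averaged 16.8 ± 1.22 FPKM with si-NRDE2-2 and 4.88 ± 1.04 FPKM with si-Control (SD, n = 3 each; log2 difference 1.79 ± 0.13, adjusted p = 5.3e-06). The survival gene MCL1 rose by 0.98 ± 0.04, while MYC and the kinase gene PIM1 fell by 0.41 ± 0.05 and 0.28 ± 0.04. SAA1 and SAA2, near-identical acute-phase genes whose reads may be shared, were both among those that rose, although the groups overlapped for SAA1.

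Factors of cytokine mRNA decay also differed in both directions. Of 18 tested, 3 rose and 6 fell (median -0.04), beside 20.9% and 23.0% of all tested rows. ZFP36, which encodes the AU-rich element binding protein tristetraprolin, averaged 15.5 ± 0.778 FPKM with si-NRDE2-2 and 20.0 ± 0.449 FPKM with si-Control (SD, n = 3 each; log2 difference -0.37 ± 0.05, adjusted p = 1.3e-04). The phosphatase gene DUSP1 fell by 0.29 ± 0.05. The deadenylase gene CNOT7 rose by 0.80 ± 0.05 and the kinase gene MAPK14, p38 alpha, by 0.27 ± 0.04. ZC3H12A, a nuclease known to degrade IL6 mRNA, was at 22.02, 18.8 and 20.3 FPKM with si-NRDE2-2 and at 21.8, 19.0 and 21.7 FPKM with si-Control, with overlap.

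Among 7 tested of 23 other interleukins and cytokines, 2 rose and 1 fell, beside 20.9% and 23.0% of all tested rows. CSF1, the macrophage growth factor gene, averaged 188 ± 12.5 FPKM with si-NRDE2-2 and 141 ± 6.36 FPKM with si-Control (SD, n = 3 each; log2 difference 0.42 ± 0.06, adjusted p = 1.9e-04). IL24, a member of the IL10 family, rose by 0.41 ± 0.07, and IL12A fell by 0.30 ± 0.10.

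**Figure D4:**
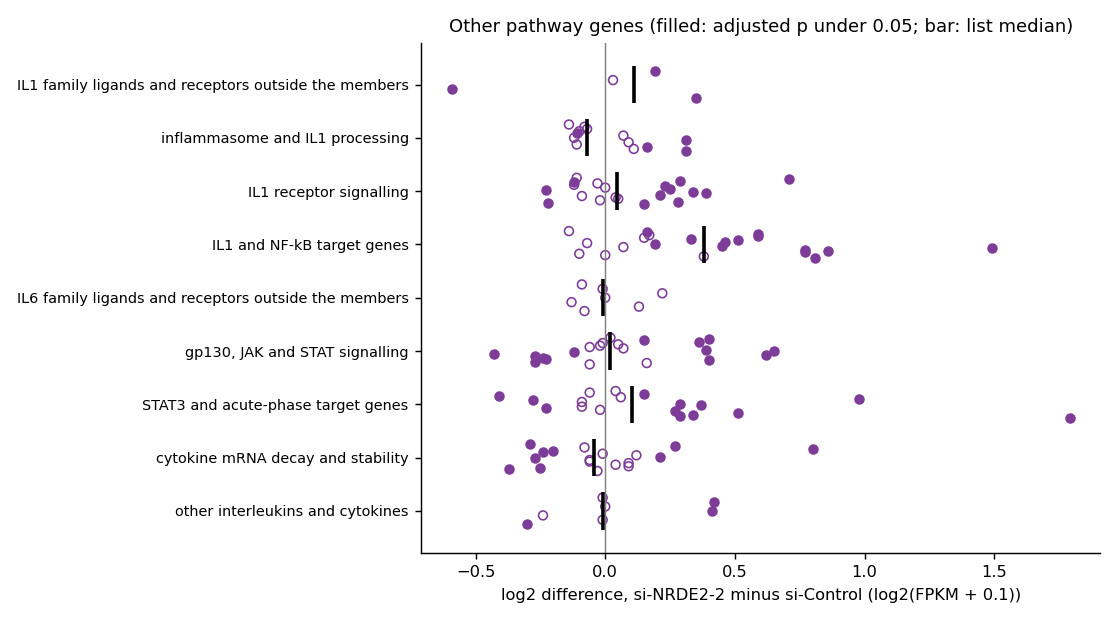
Log2 difference (horizontal axis, si-NRDE2-2 minus si-Control, log2(FPKM + 0.1)) of every tested gene in 9 lists (rows); filled points passed an adjusted p under 0.05, open points did not, and black bars are list medians. The NF-kB target list has a median of 0.38 and 0 filled points below 0, while the list of other IL6 family ligands and receptors has 0 filled points.

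Profiles over the 6 libraries were compared among tested genes with a mean of at least 5 FPKM. The measure was the root mean square distance of log2 values centred on the si-Control mean. Nearest to IL1B were the TNF family ligand gene TNFSF15 (0.19), CALU (0.21), SERPINA3 (0.22) and JAG1 (0.22). VCAM1, with a log2 difference of 1.49 like that of IL1B, was below that floor and was not ranked. TNFSF15 was at 10.9, 8.65 and 10.5 FPKM with si-NRDE2-2 and at 4.47, 3.06 and 3.80 FPKM with si-Control. Replicate 2 was lowest in both groups for TNFSF15 and SERPINA3. CALU and JAG1 were lowest in replicate 1 with si-NRDE2-2 and in replicate 2 with si-Control. All of these neighbours had large log2 differences between the groups, from 1.39 to 1.79, and IL1B was chosen for such a difference. Nearest to IL6 were TBC1D7 (0.07), SDC4 (0.08), APOC1 (0.08) and TMEM134 (0.08). The heparan sulphate proteoglycan gene SDC4 was at 101.3, 93.8 and 99.7 FPKM with si-NRDE2-2 and at 119, 107.8 and 125 FPKM with si-Control.

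A single NRDE2 siRNA was used, so its effects on other mRNAs and the loss of NRDE2 cannot be told apart. Earlier work on these same values had picked out 3 short 3′ UTR sequences in genes that were higher with si-NRDE2-2. One is GACGTA, another is the longer GACAGTA, and the last of them is GACTGTA. Of tested genes with any of them, 39.5% were higher and 12.3% lower, against 17.5% and 25.3% of genes with none. They were picked from these values for being in genes that were higher, so these shares are no test. The length of the 3′ UTR was not allowed for, and the siRNA's sequence was not compared with them. Among the 10 genes only IL1R1 had 1 copy, of GACTGTA, and IL1B and IL1A had none. In the NF-kB target list 2 of the 13 genes that rose had one (TNFAIP3 and SOD2), and in the IL1 receptor signalling list 5 of 9 (IRAK2, TAB2, TAB3, MAP3K7 and PELI1). MCL1, SOCS5, CNOT7, MAPK14 and IL24, which rose, also had one. So did ZFP36 and ZFP36L1, which fell, and genes that did not pass, among them TAB1, CARD8, JAK1, JAK2 and HIF1A.

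Several of the genes overlap others on the opposite strand in GENCODE 29, namely IL1R1, IL6, LIF, IL6ST and OSMR. IL1RAP overlaps GCNT1P3, RN7SKP296 and AC108747.1 on its own strand, which strand cannot tell apart. The kit keeps strand, but the sources used here do not give the strand setting of the counting. STEAP1B, which overlaps IL6, averaged 1.33 ± 0.0296 FPKM with si-NRDE2-2 and 1.58 ± 0.0701 FPKM with si-Control, and RICTOR, which overlaps OSMR, averaged 10.2 ± 0.991 FPKM with si-NRDE2-2 and 9.79 ± 0.972 FPKM with si-Control (SD, n = 3 each).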

How the data were processed

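Levels are FPKM as deposited by the authors. The table's name joins the prefix Cuff, used by programs of the Cufflinks family, to the word counts, but its values have decimals and step with gene length. The submitters' processing notes name STAR 2.5.1b and DESeq2 1.10.1 beside hg19 without giving a role, and no label or header states which program made the FPKM. Per the labels' protocols, stranded mRNA libraries were made from total RNA. Each column was assigned by the description in the labels, and 4 columns of no single sample were not used. The 10 genes, lists and alternatives were chosen with earlier results of these data known.

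A floor of 1 FPKM in 3 or more libraries, with small RNAs left out, gave 11791 tested rows. Values as log2(FPKM + 0.1) went into limma 3.58.1 under R 4.3.3 (trended, robust prior variance, group as the only term), with Benjamini-Hochberg adjustment over all tested rows, called under 0.05, and checked on simulated data. The 12 alternatives were a pseudocount of 1, no filter, small RNAs kept, libraries scaled to 1 median, no variance trend, the replicate block and each library left out in turn. Named genes were these 10, NRDE2, up to 4 called genes per list by smallest adjusted p, up to 2 in the less common direction, and the 4 genes nearest IL1B and IL6 in profile with a mean of at least 5 FPKM; others were named after their values were seen.

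Depth was estimated from the steps between values: of 2932 rows with a mean of at most 0.05 FPKM, 63.4% came out in whole multiples within a tolerance of 0.02, and GENCODE 29 lengths of 921 rows set the scale (quartiles 49000000 and 58200000 for si-Control replicate 1). Fragment numbers are therefore approximate. GENCODE 29 is of GRCh38, while the processing notes name hg19. Names, lengths, transcript sequences, the limits of the 3′ UTRs and the overlaps between genes were taken from GENCODE 29.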

Additional observations from a re-analysis of the deposited data

How the results depend on the processing

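The 9 fitted genes were chosen from this comparison, so their values are a description. Their log2 differences over the 12 alternatives ran from 1.25 to 1.68 for IL1B, from 0.56 to 0.84 for IL1A and from -0.39 to -0.18 for IL6. With a pseudocount of 1 the log2 difference of IL1R1 was 0.43, as that setting shrinks low genes by construction. Same-numbered libraries of the 2 groups had correlations of deviations of -0.12, 0.10 and -0.12 for replicates 1, 2 and 3, so the numbers were not taken to pair the libraries. Replicate 2 alone correlated best with its own number, and it was the lowest library of both groups for the genes described above. With the replicate block 4680 rows were called in place of 5185, and 2 inflammasome and processing genes in place of 4; the cause was not tested.

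When single libraries were left out, the called rows ran from 3927 to 5495 (higher 1921 to 2679, lower 2006 to 2816). Called genes then ran from 9 to 15 for NF-kB targets, 1 to 5 for inflammasome genes, 10 to 12 for IL1 signalling, 2 to 3 for other IL1 family genes, 0 to 1 for other IL6 family genes (1 without si-Control replicate 3), 11 to 13 for JAK and STAT signalling, 9 to 11 for STAT3 targets, 6 to 9 for decay factors and 2 to 4 for other cytokines. Depth limits IL1RN, which rested on 2.1 to 9.6 fragments a library.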
